A study of Mus musculus with 11 samples.

Results

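Nupr1, the GADD45 genes and 6 further genes of the cellular stress response were examined in primary mouse macrophages. The list had 10 genes: Nupr1, Gadd45a, Gadd45b, Gadd45g, Atf4, Ddit3, Trib3, Chac1, Ddit4 and Sesn2. Each was taken from the probe set annotated with that gene symbol and no other, which gave 9 of the 10 genes among 18755 genes measured. The probe set for Ddit3 is annotated with a second gene as well, so Ddit3 was not analysed here. Each of the 9 had a single such probe set. The list was chosen by the measured difference between LPS plus PGE and LPS, in which Nupr1 and Gadd45a were lower. That difference is therefore described below without a test for every member, and so is the difference of Nupr1 and Gadd45a between LPS plus PGE and untreated cells.

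All cells were wild-type C57Bl/6 macrophages, grown from bone marrow for 1 week with 5 ng/ml of the growth factor M-CSF and replated 24 hours before use. The 4 LPS plus PGE samples received 100 ng/ml lipopolysaccharide (LPS, from the outer membrane of Gram-negative bacteria, which activates TLR4) and 10 µM prostaglandin E (PGE, a lipid signal made from arachidonic acid) for 1 hour. The 3 LPS samples received the same dose of LPS alone for 1 hour, and the 4 untreated samples received neither. Neither the type of prostaglandin E nor the origin of the replicates is given: the labels leave unsaid whether replicates were separate mice or cultures, so p-values measure only the spread between these samples. No group received PGE without LPS.

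One whole-transcript array was made per sample, and values are on a log2 scale, where a difference of 1 is a doubling. The correlation across genes was 0.996 to 0.998 between arrays of 1 group and 0.980 to 0.993 between arrays of separate groups. All 9 macrophage markers measured, among them Csf1r, Adgre1 and Lyz2, lay above the median gene of the arrays. Their mean level per array was 11.60 to 11.66 with LPS plus PGE, 11.57 to 11.60 with LPS and 11.41 to 11.51 in untreated cells. Cd14, an LPS co-receptor gene, was the 1 macrophage marker that passed in any comparison, and it rose by 2.22 with LPS plus PGE and by 1.64 with LPS against untreated. Without Cd14 the mean of the other 8 was 11.45 to 11.53 with LPS plus PGE, 11.50 to 11.53 with LPS and 11.52 to 11.65 in untreated cells. Of 33 measured markers of other cells (neutrophils, stroma, erythroid cells, mast cells with basophils, lymphocytes and dendritic cells), 30 lay below the median gene. The 3 others were S100a8, Cd79b and Cd4. The mean level of these 7 lists lay between 3.59 and 5.44 on every array. Of the 33 markers, 5 passed with LPS plus PGE against untreated, where 31.7% of all genes passed, 7 with LPS plus PGE against LPS (24.7% of all genes) and 1 with LPS against untreated (13.2%). Their part in the results was not tested. In such bulk RNA, fewer cells of a type and less RNA per cell cannot be told apart.

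The stress response genes on the list act in linked pathways. In the integrated stress response, kinases phosphorylate the translation factor eIF2alpha, which slows protein synthesis and favours translation of the transcription factor ATF4. ATF4 in turn raises genes for amino acid supply and glutathione turnover, and with DDIT3 (CHOP) also genes linked to cell death. The GADD45 proteins are small acidic proteins that bind the kinase MAP3K4 upstream of p38 and JNK, as well as proteins of the cell cycle and of DNA repair. NUPR1 is a small, largely disordered chromatin-binding protein made in many kinds of cell stress, and DDIT4 and SESN2 restrain the growth kinase complex mTORC1.

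The members responded in different ways to the stimuli. After LPS alone, Nupr1 and Gadd45b rose several-fold, Ddit4 and Atf4 rose less, and the 5 other members did not pass the test, where 13.2% of all genes passed. A gene passed at a limma p, adjusted over all genes, under 0.05. With PGE added to LPS, Ddit4 was 8.38-fold higher than with LPS alone, while Nupr1 was 2.83-fold and Gadd45a 2.09-fold lower. The ATF4 target genes Trib3 and Chac1 did not pass against untreated cells with either treatment.

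**Figure D1:**
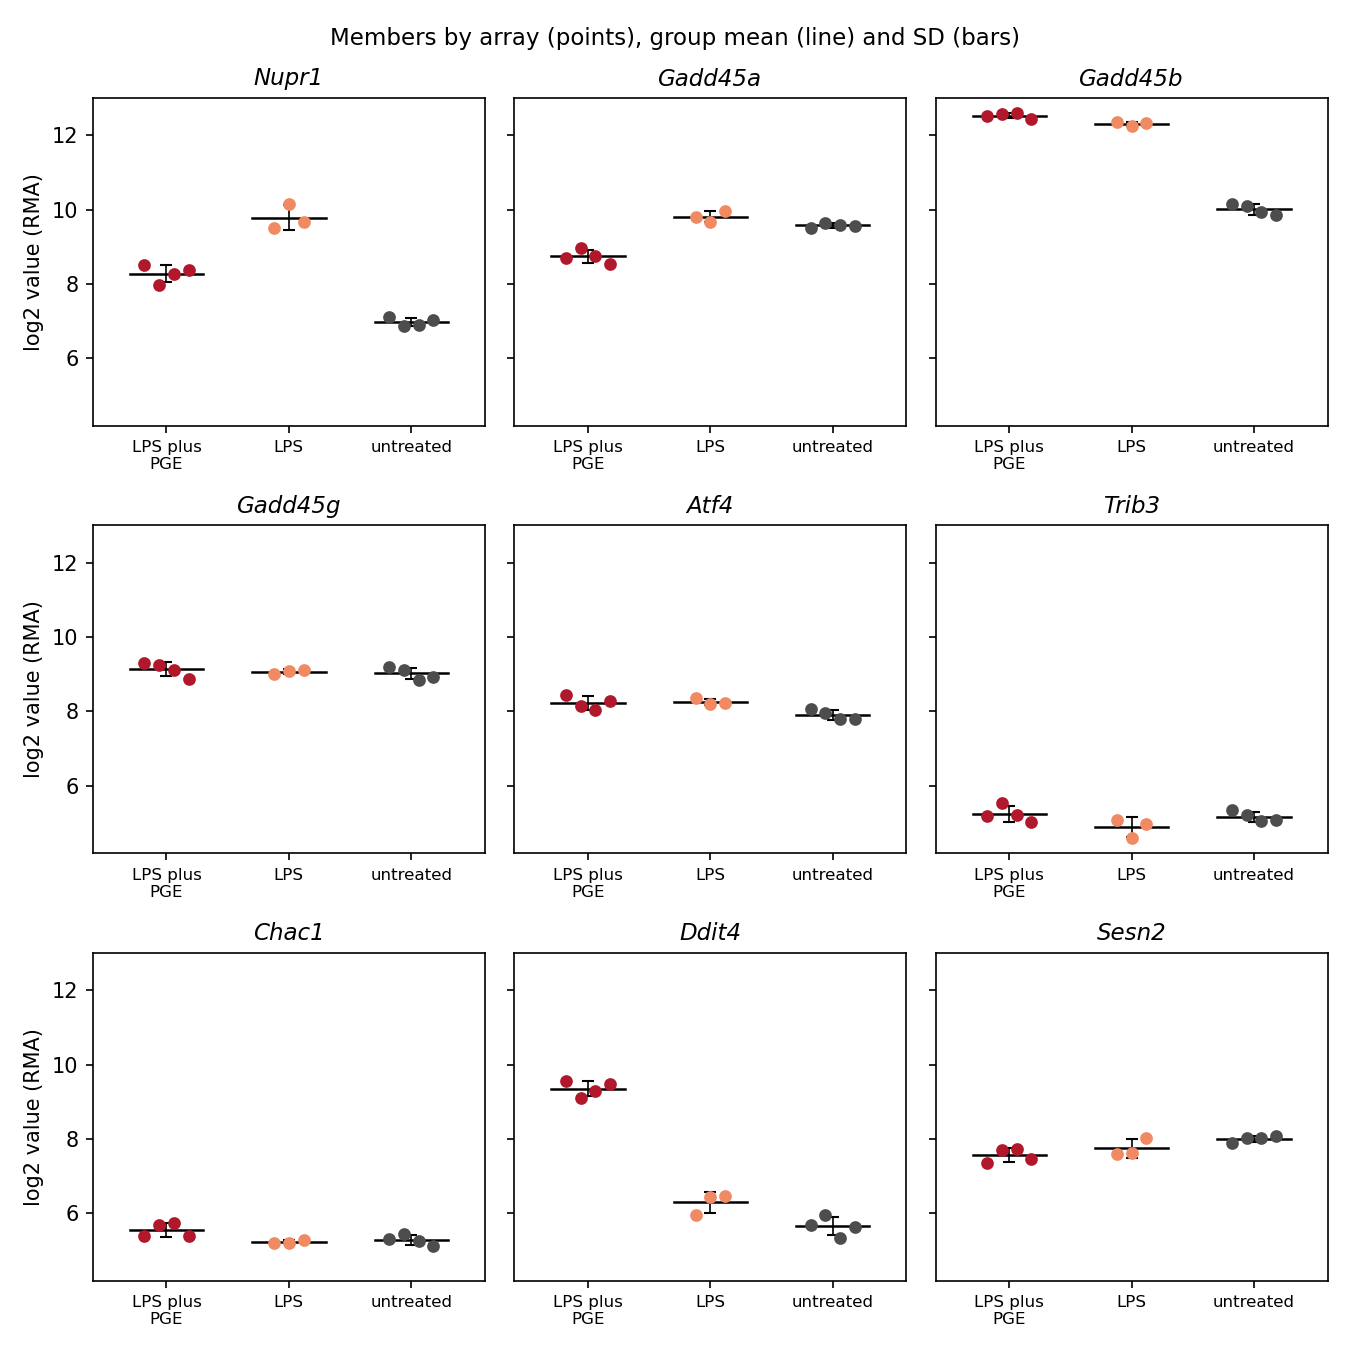
Log2 value of each of the 9 members (vertical axis, the same scale in every panel) on each array, for LPS plus PGE (n = 4), LPS (n = 3) and untreated macrophages (n = 4). Points are arrays, lines are group means and bars are SD; Ddit4 stands apart in the LPS plus PGE arrays, at 9.09 to 9.57.

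Nupr1 had values of 8.50, 7.98, 8.26 and 8.37 in the LPS plus PGE arrays, 9.50, 10.16 and 9.68 in the LPS arrays, and 7.11, 6.86, 6.89 and 7.01 in the untreated arrays. The 3 groups did not overlap: every LPS array was above every LPS plus PGE array, and every LPS plus PGE array above every untreated one. The group means were 8.28 ± 0.22 with LPS plus PGE, 9.78 ± 0.34 with LPS and 6.97 ± 0.11 in untreated cells (SD, n = 4, 3 and 4).

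With LPS alone Nupr1 rose by 2.81 ± 0.15 (SE), or 7.03-fold, with a limma adjusted p of 7.36e-08. This change ranked 65 among the rises of 18755 genes. The LPS arrays also enter the difference that chose Nupr1, so the mean of the 7 treated arrays was set against untreated as well. With equal spread in all groups, the error of this mean difference is uncorrelated with that of the difference that chose Nupr1. The spread was unequal here (SD 0.22, 0.34 and 0.11, as above), and the same treated arrays enter both, so the 2 are not independent. By the mean of the 7 treated arrays Nupr1 rose by 1.96 ± 0.12 (limma adjusted p = 2.12e-07). The difference between LPS plus PGE and LPS was -1.50, the second-lowest of all genes (rank 2 among falls). With LPS plus PGE Nupr1 was still 1.31 above untreated cells.

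Gadd45a, a target of the tumour suppressor p53 in DNA damage, was measured at 8.70, 8.97, 8.76 and 8.52 in the LPS plus PGE arrays, at 9.79, 9.66 and 9.96 in the LPS arrays and at 9.50, 9.64, 9.60 and 9.56 in the untreated arrays. The LPS plus PGE arrays lay below all others, and the LPS arrays lay slightly above the untreated ones. LPS alone gave a difference of 0.23 ± 0.10 (SE), which did not pass (limma adjusted p = 0.17). The LPS plus PGE mean differed by -1.07 from the LPS mean (rank 25 among falls) and by -0.84 from the untreated mean, so that Gadd45a stood below its resting level, unlike Nupr1. The mean of the 7 treated arrays fell by 0.38 ± 0.08 against untreated (limma adjusted p = 0.00584). This mean joins 2 groups that lay on opposite sides of the untreated arrays. Its fall came from the LPS plus PGE arrays, which also enter the difference that chose Gadd45a. The SD was unequal here too (0.19 with LPS plus PGE, 0.15 with LPS and 0.06 untreated). The p-value is therefore not independent of that choice, and no response of Gadd45a is read from it.

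Gadd45b, an NF-kB target that limits JNK signalling, had values of 12.53, 12.58, 12.60 and 12.44 in the LPS plus PGE arrays and 12.35, 12.26 and 12.33 in the LPS arrays. The untreated arrays gave 10.16, 10.11, 9.94 and 9.85. All treated arrays were above all untreated arrays, and the LPS plus PGE arrays were above the LPS arrays by a small margin. Gadd45b rose by 2.52 ± 0.07 with LPS plus PGE (5.75-fold, limma adjusted p = 1.23e-10) and by 2.30 ± 0.08 with LPS (4.92-fold, limma adjusted p = 9.76e-10), both against untreated cells. The difference between LPS plus PGE and LPS was 0.23. It was 0.20 after quantile and 0.23 after cyclic loess normalization. Equal array medians, which moved the median of all genes to 0.15, gave 0.38.

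Gadd45g, the third family member, ranged over 8.87 to 9.30 in the LPS plus PGE arrays, 9.01 to 9.12 in the LPS arrays and 8.85 to 9.18 in the untreated arrays. The LPS range lay within both others, and LPS plus PGE replicates 1 and 2 were above every other array of the study. Neither comparison with untreated cells passed (0.11 ± 0.10 with LPS plus PGE, limma adjusted p = 0.422, and 0.05 ± 0.11 with LPS, limma adjusted p = 0.828). The 3 GADD45 genes therefore had 3 patterns: Gadd45b was higher with either treatment, Gadd45a was lower in the presence of PGE, and no difference was detected for Gadd45g.

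Ddit4, which encodes the mTORC1 inhibitor also called REDD1, had values of 9.57, 9.09, 9.29 and 9.47 in the LPS plus PGE arrays. The LPS arrays gave 5.96, 6.44 and 6.46, and the untreated arrays 5.67, 5.94, 5.34 and 5.63. The LPS plus PGE arrays stood far above the rest, whereas the lowest LPS array was only just above the highest untreated one. Against untreated cells, Ddit4 rose by 3.71 ± 0.15 with LPS plus PGE (13.1-fold, limma adjusted p = 2.62e-09) and by 0.64 ± 0.16 with LPS (1.56-fold, limma adjusted p = 0.0204). The call for LPS alone ended without untreated replicate 3 (limma adjusted p = 0.052), LPS replicate 2 (0.0818) or LPS replicate 3 (0.0809). Untreated and LPS values lay near the median gene of the arrays (5.79 to 6.01), and background was not measured, which limits both folds. The difference of 3.07 between LPS plus PGE and LPS ranked 10 among the rises of all genes.

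Sesn2, a leucine-binding inhibitor of mTORC1 signalling, was on the opposite side. It had values of 7.36, 7.71, 7.74 and 7.46 in the LPS plus PGE arrays, 7.58, 7.61 and 8.03 in the LPS arrays and 7.89, 8.02, 8.04 and 8.08 in the untreated arrays. Every LPS plus PGE array was below every untreated array, while LPS replicate 3 lay among the untreated ones. Sesn2 fell by 0.44 ± 0.11 with LPS plus PGE against untreated (limma adjusted p = 0.0112), but after cyclic loess normalization the difference was -0.27 and did not pass (limma adjusted p = 0.0857). With LPS alone the difference was -0.26 ± 0.12 (limma adjusted p = 0.193), and without LPS replicate 3 it passed at -0.41 (0.0347).

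Atf4, the transcription factor of the integrated stress response, had values of 8.45, 8.14, 8.04 and 8.28 in the LPS plus PGE arrays, 8.36, 8.21 and 8.21 in the LPS arrays and 8.06, 7.95, 7.79 and 7.79 in the untreated arrays. The LPS arrays were all above the untreated ones; the LPS plus PGE arrays overlapped both other groups. It rose by 0.33 ± 0.09 with LPS plus PGE (limma adjusted p = 0.0204) and by 0.36 ± 0.10 with LPS (limma adjusted p = 0.0368). These are small rises whose calls depended on single arrays. The call for LPS ended without any 1 of the 3 LPS arrays (adjusted p from 0.0662 to 0.115) and without untreated replicate 2 (0.0594), 3 (0.0914) or 4 (0.0888). The call for LPS plus PGE ended without untreated replicate 3 (0.0572) or 4 (0.0588), or without LPS plus PGE replicate 1 (0.0577) or 4 (0.0504).

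The ATF4 targets Trib3 and Chac1 were dim in all groups, below the median gene of the arrays (5.79 to 6.01), and background was not measured here. Trib3, a pseudokinase that binds ATF4 and AKT, ranged over 5.02 to 5.52 in the LPS plus PGE arrays, 4.58 to 5.09 in the LPS arrays and 5.04 to 5.34 in the untreated arrays. It did not pass with LPS plus PGE (0.07 ± 0.13, limma adjusted p = 0.696) or with LPS (-0.29 ± 0.14, limma adjusted p = 0.208). Between LPS plus PGE and LPS its difference was 0.35, with overlapping arrays. It was 0.28 after quantile and 0.29 after cyclic loess normalization, and 0.51 with equal array medians. Chac1, an enzyme that degrades glutathione, ranged over 5.37 to 5.74 in the LPS plus PGE arrays, 5.20 to 5.28 in the LPS arrays and 5.11 to 5.45 in the untreated arrays.

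The LPS plus PGE arrays of Chac1 lay above the LPS arrays, by 0.31 in the mean, but overlapped the untreated ones. For Chac1 the difference from LPS was 0.35 after quantile and 0.28 after cyclic loess normalization, and 0.47 with equal array medians. Against untreated cells its difference was 0.26 ± 0.10 with LPS plus PGE (limma adjusted p = 0.0611) and -0.05 ± 0.10 with LPS (limma adjusted p = 0.807). The first passed without untreated replicate 2 (0.0358), LPS plus PGE replicate 1 (0.0435) or LPS plus PGE replicate 4 (0.0391).

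**Figure D2:**
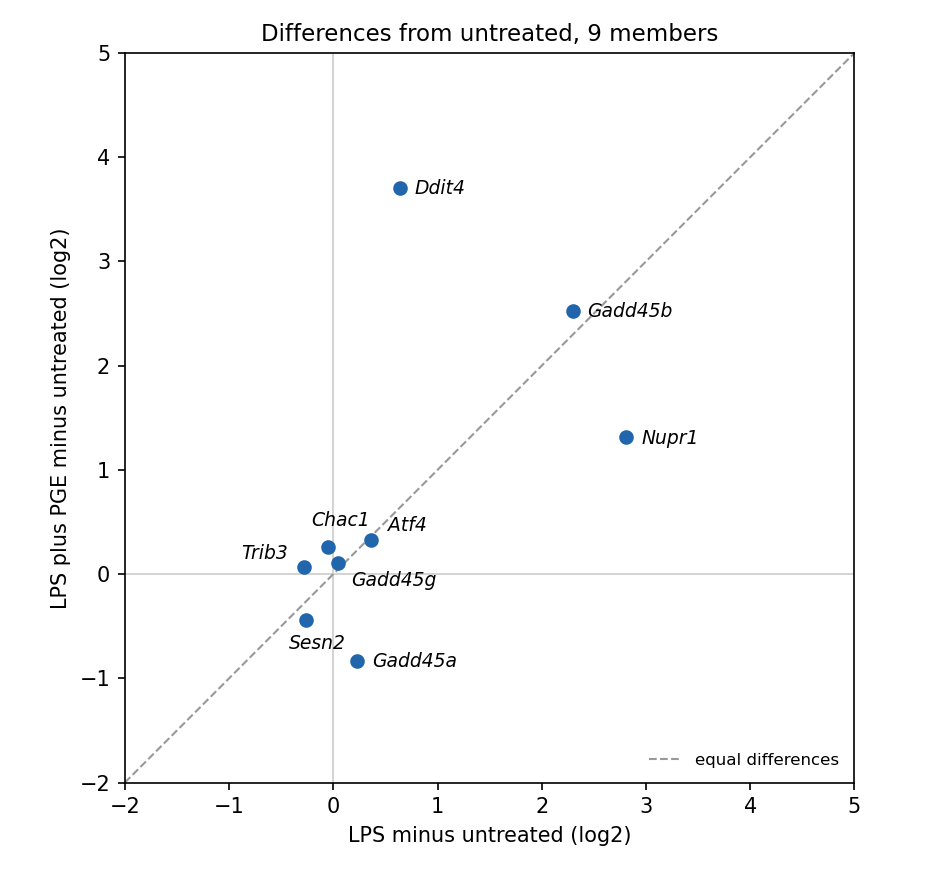
Log2 difference from untreated cells with LPS (horizontal axis) and with LPS plus PGE (vertical axis) for the 9 members, from group means; the dashed line marks equal differences, and both axes share the untreated arrays. Ddit4 lies far above the line (3.71 with LPS plus PGE, 0.64 with LPS), and Nupr1 (1.31 and 2.81) and Gadd45a (-0.84 and 0.23) lie below it.

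Taken as a list, 4 of the 9 members passed with LPS against untreated, all of them higher: Nupr1, Gadd45b, Ddit4 and Atf4. Of all genes tested, 13.2% passed (6.55% higher and 6.69% lower). The LPS arrays also enter the difference that chose Nupr1 and Gadd45a, so their part in this count is not independent of that choice. Without untreated replicate 3 or without LPS replicate 2, 2 of the 9 passed, Nupr1 and Gadd45b. Without LPS replicate 3, Ddit4 (limma adjusted p = 0.0809) and Atf4 (0.0662) did not pass either. Sesn2 then passed as lower (-0.41, limma adjusted p = 0.0347), so the members that passed were no longer all higher. The median difference was 0.23, which is the value of Gadd45a itself, against -0.01 over all genes. With LPS plus PGE against untreated, 4 of the 7 members other than Nupr1 and Gadd45a passed, 3 higher and 1 lower. Of all genes, 31.7% passed (13.8% higher and 17.9% lower). Genes above the median level of all genes passed more often. With genes below that level left out, 4 of 7 members passed with LPS, beside 30.5% of all genes kept. With LPS plus PGE, 4 of 5 members other than Nupr1 and Gadd45a passed, beside 50.3%. The excess over all genes is thus not read as a trait of the members. Between LPS plus PGE and LPS, the arrays of 5 of the 9 members did not overlap, 3 higher (Ddit4, Gadd45b and Chac1) and 2 lower (Nupr1 and Gadd45a), where 33.9% of all genes did not overlap. Nupr1 and Gadd45a were lower by the choice of the list, so nothing is read from this count; of the 7 other members, 3 did not overlap.

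The LPS plus PGE arrays carried a shift that followed the level of a gene. The median difference from untreated was -0.11 for genes above a mean level of 5.92 and 0.14 for those below it, and from LPS it was -0.11 and 0.14 as well. Differences of Ddit4, Nupr1 and Gadd45a were several times larger than this shift, while those of Sesn2, Chac1, Trib3 and Atf4 were of a size nearer to it. Against untreated, the LPS plus PGE difference of Atf4 had the opposite sign to the shift at its level. Those of Sesn2, Chac1 and Trib3 had the same sign as the shift at their levels. Atf4 rose by 0.33 as deposited, 0.42 after quantile and 0.49 after cyclic loess normalization. Sesn2 differed by -0.44, -0.33 and -0.27 in the same order. The part of the shift in these differences was not tested beyond the normalization alternatives.

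The 250 bases before the annotated start are shown for the 4 members with the largest differences, since they had 4 different patterns; they come from RefSeq (GRCm38.p6), written 5′ to 3′ on the gene's strand in lower case. Capitals mark matches, on either strand, to 6 motifs searched: the ATF4 response element (CARE, TGATGNAAT), the cyclic AMP response element (CRE, TGACGTCA), the NF-kB consensus, the AP-1 site (TGANTCA), the endoplasmic reticulum stress element (ERSE) and TATAAA.
Nupr1, chr7:126625471-126625720, minus strand: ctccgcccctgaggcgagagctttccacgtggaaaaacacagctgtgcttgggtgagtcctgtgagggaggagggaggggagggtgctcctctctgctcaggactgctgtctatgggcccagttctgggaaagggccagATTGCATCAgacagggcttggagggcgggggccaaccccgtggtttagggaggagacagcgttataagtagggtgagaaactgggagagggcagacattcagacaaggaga
Gadd45a, chr6:67037408-67037657, minus strand: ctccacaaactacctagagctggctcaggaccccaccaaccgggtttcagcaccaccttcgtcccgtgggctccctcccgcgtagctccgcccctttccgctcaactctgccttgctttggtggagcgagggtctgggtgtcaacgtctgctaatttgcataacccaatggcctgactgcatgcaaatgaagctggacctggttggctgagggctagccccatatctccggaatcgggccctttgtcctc
Gadd45b, chr10:80929841-80930090, plus strand: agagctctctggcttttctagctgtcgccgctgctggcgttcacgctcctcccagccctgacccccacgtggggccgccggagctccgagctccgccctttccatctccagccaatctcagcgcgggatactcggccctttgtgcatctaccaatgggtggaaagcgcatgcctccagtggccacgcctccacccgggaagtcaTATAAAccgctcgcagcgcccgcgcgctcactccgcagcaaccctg
Ddit4, chr10:59951771-59952020, minus strand: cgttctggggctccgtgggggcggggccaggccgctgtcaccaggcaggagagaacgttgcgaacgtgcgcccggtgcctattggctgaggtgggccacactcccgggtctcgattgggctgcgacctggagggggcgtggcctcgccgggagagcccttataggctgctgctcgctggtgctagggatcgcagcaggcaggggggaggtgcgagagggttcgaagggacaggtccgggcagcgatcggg

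The Nupr1 window held a match to the ATF4 response element on the opposite strand, which starts 111 bases before the annotated start. Such a match is in 0.816% of the 32851 promoter windows of the same length. The Gadd45b window held TATAAA, 46 bases before the start, which 12.4% of all windows hold. None of the 6 motifs was found in the Gadd45a or Ddit4 windows; among all windows, 1.55% held the CRE, 3.9% the NF-kB consensus, 6.75% the AP-1 site and 0.113% the ERSE. Of the other members, Gadd45g and Trib3 had TATAAA, and Atf4, Chac1 and Sesn2 had no match. The CARE pattern searched fixes its last base. Read on the opposite strand, gttgcatca in the Chac1 window and tttgcatca in the Gadd45g window differ from it in that base alone. The share of all windows with such near matches was not counted. These matches describe the letters in a short window only.

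The genes closest to Nupr1 in their 2 differences from untreated cells (Euclidean distance over 17446 other genes; LPS plus PGE, then LPS) were the transcription factor gene Irf1 (1.60 and 2.58, distance 0.37), Cdk5r1, which encodes an activator of the kinase CDK5 (1.62 and 2.43, 0.49), the endothelin gene Edn1 (1.46 and 2.35, 0.49) and Tagap (1.47 and 2.34, 0.50). Each was highest with LPS and intermediate with LPS plus PGE, which follows from the closeness to Nupr1 by which they were chosen. Those closest to Gadd45a were Zfp607a (-0.73 and 0.29, distance 0.12), the cohesin protector gene Sgo1 (-0.75 and 0.12, 0.15), the Wnt receptor gene Fzd7 (-0.68 and 0.22, 0.15) and Fgd3 (-0.92 and 0.10, 0.16). These distances rest on 3 conditions, of which the untreated arrays enter both differences.

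Other genes of the same pathways were taken from 8 lists with 141 measured genes. With LPS against untreated, 31 of them passed, 21 higher and 10 lower, or 22.0% beside 13.2% of all genes. After quantile normalization the split was 20 higher and 15 lower, where 15.3% of all genes passed. Of the 141 listed genes, 127 lay above the median level of all genes, where genes passed more often. With genes below that level left out, 41 of the 127 passed, beside 30.5% of all genes kept. The excess over all genes is thus not read as a trait of the lists. The eIF2alpha phosphatase subunit gene Ppp1r15a (GADD34), which reverses the integrated stress response, rose by 2.92 ± 0.08 (limma adjusted p = 1.25e-10). A second subunit gene, Ppp1r15b, passed at 0.20 ± 0.06, but not when any 1 of untreated replicates 1 to 4, LPS replicates 2 and 3 or LPS plus PGE replicate 3 was left out. The kinases that phosphorylate eIF2alpha were not among the genes that passed. Of 33 amino acid response genes and ATF4 targets, 3 rose and 3 fell, with a median difference of 0.04; the cystine transporter Slc7a11 rose by 1.47 ± 0.16, the cationic amino acid transporter Slc7a1 by 0.53 ± 0.10 and the transcription factor Atf3 by 0.48 ± 0.10. Of 25 unfolded protein response genes 2 rose and 1 fell, namely Herpud1 (0.62 ± 0.07), Ero1a (0.28 ± 0.06) and the sensor Ern1 (-0.29 ± 0.07), whose call ended without LPS replicate 1 (limma adjusted p = 0.0552).

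Of 27 p53 and DNA damage response genes, 8 rose and 4 fell with LPS. They were led by the kinase Plk2 (2.33 ± 0.08), the antiproliferative gene Btg2 (2.02 ± 0.12) and the cell death gene Pmaip1 (1.42 ± 0.14). Of 10 MAP kinase partners of GADD45, 3 rose, namely Map2k3 (0.51 ± 0.10), Mapk8 (0.40 ± 0.06) and Map2k6 (0.31 ± 0.09). Among 19 mTORC1 regulators, 3 fell and 0 rose: the thioredoxin-binding protein gene Txnip (-1.39 ± 0.08), Mlst8, a subunit of the mTOR complexes (-0.99 ± 0.07), and the sestrin gene Sesn1 (-0.53 ± 0.09). The call of Map2k6 ended without untreated replicate 1, 2 or 3, without LPS replicate 3 and without LPS plus PGE replicate 1 or 3, with an adjusted p of at most 0.132. Of 15 heat shock genes 2 rose, Dnajb4 (1.47 ± 0.07) and Hsp90aa1 (0.32 ± 0.07), the second of which did not pass without LPS replicate 1 (0.0522) or 2 (0.059). Of 7 paralogs of the members, the pseudokinase gene Trib1 rose by 2.93 ± 0.07 and Sesn1 fell, as above.

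With LPS plus PGE against untreated, 63 of the 141 genes passed, 30 higher and 33 lower, or 44.7% beside 31.7% of all genes. This balance moved with the scaling, to 35 higher and 12 lower after cyclic loess normalization and 41 and 12 with equal array medians, which moved the median of all genes to 0.14. Of all genes, 20.8% and 39.8% passed under these settings. With genes below the median level left out, 70 of 127 listed genes passed, beside 50.3% of all genes kept. Ppp1r15a (3.17 ± 0.08), Trib1 (3.09 ± 0.07), Btg2 (2.89 ± 0.11), Slc7a11 (2.25 ± 0.15), Plk2 (1.69 ± 0.07), Dnajb4 (1.56 ± 0.06), the cell cycle inhibitor Cdkn1a (1.30 ± 0.05) and Slc7a1 (1.12 ± 0.09) rose. The mean of Cdkn1a was 12.72 with LPS plus PGE, 12.55 with LPS and 11.43 in untreated cells. Txnip (-1.73 ± 0.08), Mlst8 (-1.46 ± 0.06) and Sesn1 (-0.81 ± 0.08) fell, as did the C/EBP factor gene Cebpg (-0.54 ± 0.06) and the glutathione enzyme gene Chac2 (-0.51 ± 0.09).

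Smaller changes with LPS plus PGE included Map2k3 (0.69 ± 0.10), Dnaja1 (0.51 ± 0.11), Mapk8 (0.42 ± 0.05), Ero1a (0.39 ± 0.05) and the chaperone Hspa5 (0.33 ± 0.05), which rose, and Xbp1 (-0.31 ± 0.06), which fell. The kinase genes Eif2ak2 (-0.42 ± 0.08) and Eif2ak3 (-0.29 ± 0.07) fell, but neither passed after cyclic loess normalization, with adjusted p-values of 0.0589 and 0.157. The dim genes Hspb1 (0.36 ± 0.12) and Mapk13 (0.32 ± 0.11) passed, but not after quantile normalization (0.214 and 0.356), and neither call held without untreated replicate 3 or 4 or LPS plus PGE replicate 2 or 3; that of Hspb1 also ended without LPS replicate 1 or LPS plus PGE replicate 1, and that of Mapk13 without untreated replicate 2. The mean of Hspb1 was 4.84 with LPS plus PGE, 4.86 with LPS and 4.48 in untreated cells. Among the 19 mTORC1 regulators 10 fell and 0 rose, although after cyclic loess normalization 4 fell and 2 rose.

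Between LPS plus PGE and LPS, 42 of the 141 genes passed, 11 higher and 31 lower, or 29.8% beside 24.7% of all genes. With genes below the median level left out, 49 of 127 listed genes passed, beside 35.7% of all genes kept. The count over the 141 genes and its balance depended on the scaling: 18 passed after quantile normalization (10 higher, 8 lower), 22 after cyclic loess normalization (13 and 9) and 39 with equal array medians (32 and 7). The share of all genes moved too, to 10.1%, 11.6% and 35% in that order. The count was 21 without LPS replicate 3 (15.7% of all genes) and 23 without LPS plus PGE replicate 1 (17%). Of the 23 genes named by rule in this comparison, 9 passed under every alternative. They were Btg2 (0.86 ± 0.12), Slc7a11 (0.78 ± 0.16), Slc7a1 (0.59 ± 0.10) and the chaperone gene Dnajb1 (0.41 ± 0.07), which rose, and Atf3 (-0.88 ± 0.10), the death receptor gene Fas (-0.74 ± 0.10), Plk2 (-0.64 ± 0.08), Herpud1 (-0.53 ± 0.07) and Mlst8 (-0.47 ± 0.07), which fell; the limma adjusted p was 0.000143 for Atf3, the lowest of the 9, and 0.00654 for Slc7a11, the highest.

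The remaining 14 of the 23 passed in the fit as deposited but not under at least 1 alternative. Dnaja1 (0.43 ± 0.12) and Ppp1r15a (0.24 ± 0.08) were higher, and Eif2ak2, Eif2ak4, Xbp1, Atf6b, Map2k6, Mapk14, Map3k4, Mios, Txnip, Hsf2, Chac2 and Sesn1 were lower, by 0.19 to 0.37 on the log2 scale.

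**Figure D3:**
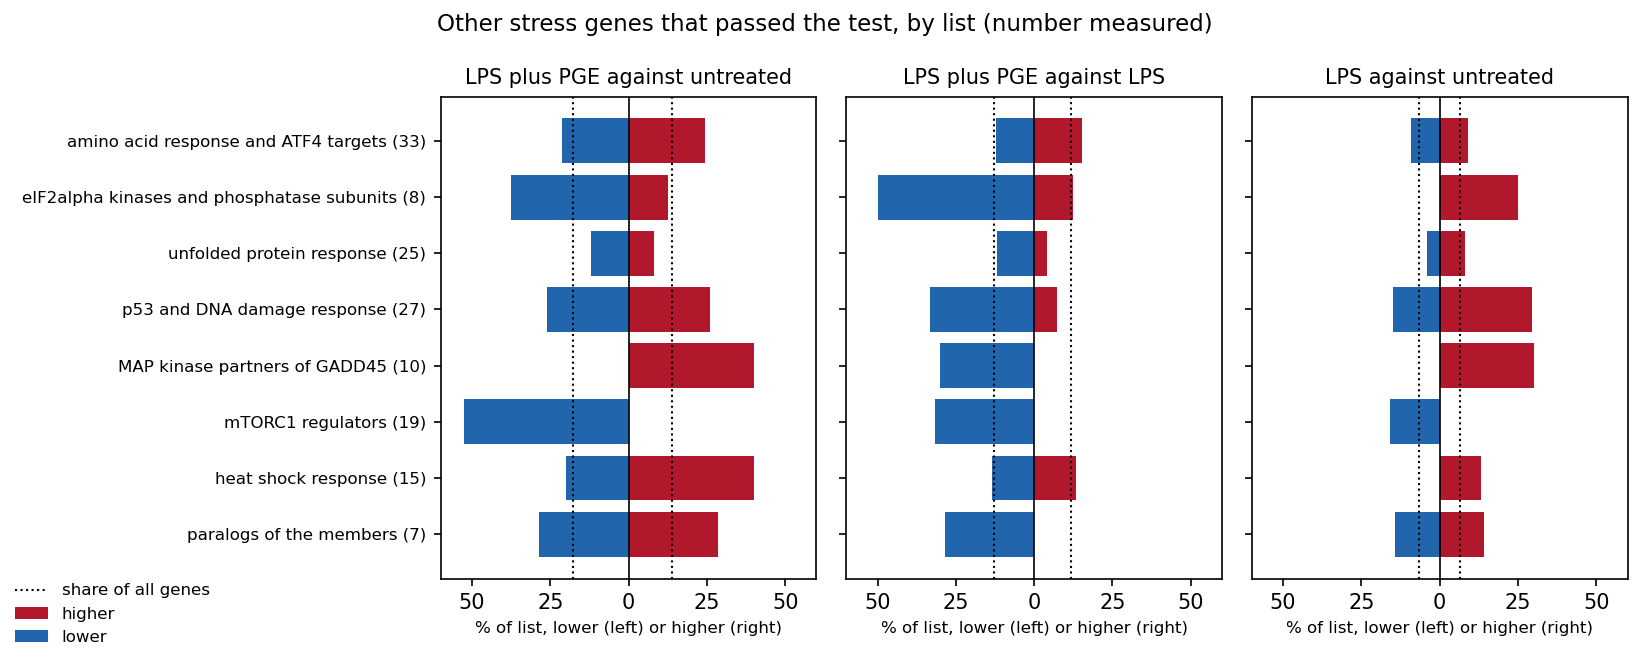
Share of the measured genes of each of the 8 lists that passed the test (horizontal axis, percent; bars to the right are higher, bars to the left lower), for LPS plus PGE against untreated, LPS plus PGE against LPS and LPS against untreated. Dotted lines mark the shares among all 18755 genes. Of the 141 listed genes, 127 lay above the median level of all genes, where genes passed more often. For mTORC1 regulators, 10 of 19 were lower with LPS plus PGE against untreated and 0 higher (4 lower and 2 higher after cyclic loess normalization).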

How the data were processed

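The deposited values are log2 expression values per probe set (1.20 to 13.81). That they are log2 was inferred from this range and from RMA, which the submitters' processing notes name beside Affymetrix Power Tools, R 2.13.1 and Partek. Of 12 arrays made the authors left out 1 LPS array for quality.

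The 35309 probe sets held 21143 with 1 gene symbol in the platform annotation, 1870 with several and 12296 with none. The probe set with the highest mean was kept per symbol, giving 18755 genes. With limma 3.58.1 (R 4.3.3), 1 mean per group was estimated over the 11 arrays, leaving 8 residual degrees of freedom. Tests were two-sided, with Benjamini-Hochberg adjustment over all genes; a gene passed at an adjusted p under 0.05. The number of arrays limits the precision.

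Members and lists were chosen with earlier results of these data known. Named genes were all members, the 3 largest passing changes of each list and comparison, and the 4 nearest patterns. Alternatives covered normalization, variance model, array weights, groups, dim genes, probe sets, replicate block and each array left out. The pipeline was tested on simulated data. Figures used matplotlib 3.10.9.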

Additional observations from a re-analysis of the deposited data

How the results depend on the processing

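The results were recomputed under 22 alternatives, 11 of processing and 11 that each left out 1 array. No tested member changed direction while it passed. The rises of Nupr1 with LPS (2.62 to 2.95), of Gadd45b with LPS (2.24 to 2.35) and LPS plus PGE (2.47 to 2.65) and of Ddit4 with LPS plus PGE (3.61 to 3.87) passed under all of them. Between LPS plus PGE and LPS, the difference was -1.64 to -1.31 for Nupr1, -1.15 to -0.91 for Gadd45a and 2.90 to 3.23 for Ddit4. The count of members passing with LPS was 2 to 4 when single arrays were left out. The count of other stress genes passing between LPS plus PGE and LPS was 18 after quantile and 22 after cyclic loess normalization, and 21 to 40 when single arrays were left out. The share of all genes was 10.1% and 11.6%, and 15.7% to 23.8%, in the same order. Atf4 with LPS also failed with array weights (adjusted p = 0.0717) and over all probe sets (0.0595). Chac1 with LPS plus PGE passed with equal array medians (0.0128), array weights (0.035) and the dimmest genes left out (0.0451). Dim values, with no background measured, limit what Trib3 and Chac1 can show, and the folds of Ddit4 from untreated cells.

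With replicate number as a block (replicate block), Ddit4 with LPS did not pass (0.66, limma adjusted p = 0.0527) and Chac1 with LPS plus PGE did (0.0307). In that fit 3 members passed with LPS (13.1% of all genes) and 5 of 7 with LPS plus PGE (32.7%). Between LPS plus PGE and LPS, 34 other stress genes passed (25% of all genes). Arrays of the same number deviated together in 7 of 10 pairs (correlation over 0.1, range -0.02 to 0.21). Each array was also set against each other group that held its number, which gave 20 combinations from the 11 arrays. In 18 of the 20, the array correlated best with the one of its own number. These combinations are not separate arrays, since each of the 10 pairs enters from both sides. The labels do not say that the numbers pair the arrays.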
